A study of Sus scrofa with 36 samples.

Results

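The genes described are the 6 protein-coding genes that the mitochondrial genome holds for complexes III, IV and V of the respiratory chain, namely CYTB, COX1, COX2, COX3, ATP6 and ATP8, measured in the pig thyroid. The members are the probes to which the array files give one of these gene names, which were 75 of the 60305 probes: 25 for COX1, 21 for CYTB, 14 for COX3, 9 for ATP6, 5 for COX2 and 1 for ATP8. The older names of PTGS1 and PTGS2 are the same letters as COX1 and COX2, and every description of these 75 probes names the mitochondrial gene. The genes were chosen because earlier work on these arrays had found mitochondrial probes brighter in the crossbred pigs than in the mean of both parent breeds. Every value of the crossbred pigs below is therefore a description without a test, whereas the heat change and the difference between the parent breeds were not used in the choice and were tested.

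The thyroid of 36 castrated male growing pigs was hybridized, 1 pig per array. The pigs were Creole (CR), Large White (LW) or the cross of both breeds (F1), without other treatment than the heat. Each breed had 6 pigs at 24 °C and 6 at a temperature that the labels give as 30 °C and the protocol as 32 °C. The heat lasted up to 5 days, and its length differed between pigs with their day of slaughter. Slaughter came before the heat for the pigs at 24 °C and after it for those at 30 °C, and temperature and day of slaughter cannot be told apart. Each breed was represented by a few litters, and litter, sire, dam and pen are not in the labels, so a difference between breeds and a difference between families or maternal lines cannot be told apart. The study arranged all its pigs in blocks of littermates within a breed. P-values therefore measure the spread between these pigs, which the tests treat as independent although littermates are not.

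Cytochrome b, the product of CYTB, is the catalytic core of complex III, which passes electrons from ubiquinol to cytochrome c. COX1, COX2 and COX3 encode the core of cytochrome c oxidase (complex IV), which passes the electrons on to oxygen. ATP6 and ATP8 encode subunits of the membrane part of ATP synthase (complex V), which uses the proton gradient to make ATP. The other subunits of these complexes are encoded in the nucleus. In mammals the mitochondrial genome is inherited from the dam and transcribed as long precursors that are cut into the single messengers, with ATP8 and ATP6 left overlapping on a shared messenger. In the thyroid, respiration feeds iodide uptake and hormone synthesis.

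All 75 probes are 60 bases long and were well above background on all 36 arrays, so all 75 were tested. The 74 probes that read the messenger strand had mean intensities between 14.48 and 18.84 on the log2 scale. The median intensity of an array, over all spots, lay between 132.5 and 173 units before scaling, and 0 spots were saturated. Between 10 and 29 of the 100 brightest probes of an array were member probes, and the 75 probes together held 5.10% to 8.22% of the summed intensity of an array. Values below are quantile-normalized log2 median intensities, on which 1 unit is a doubling. The thyroid character of the samples was seen in TG (18.80), SLC5A5 (16.72) and IYD (14.42), which were well above background on all 36 arrays, as were all 8 follicular cell markers that could be tested.

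Many of the 75 probes overlap: 60 share at least a stretch with another member probe, in 67 pairs, of which 26 differ by at least 1 base. The sequences are printed because probes to nearly the same stretch of a messenger gave very different values across pigs. The first lines give the COX2 probes that were called between LW and CR (below), of which A_72_P751248 and A_72_P746371 share 48 paired bases and differ by the substitution T45A, counted from the 5′ end of the first probe. Capitals mark the base that differs.
COX2 A_72_P751248: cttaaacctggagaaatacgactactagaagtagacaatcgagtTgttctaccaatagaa
COX2 A_72_P746371: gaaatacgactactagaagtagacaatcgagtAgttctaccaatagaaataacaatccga
COX2 O5218: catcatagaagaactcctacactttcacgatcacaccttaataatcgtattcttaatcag
The other called probes are the following pair of overlapping COX3 probes and the single ATP8 probe, which have no such difference to mark.
COX3 A_72_P760010: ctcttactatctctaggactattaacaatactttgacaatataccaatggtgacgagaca
COX3 A_72_P759028: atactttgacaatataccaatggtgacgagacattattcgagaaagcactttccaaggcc
ATP8 A_72_P442187: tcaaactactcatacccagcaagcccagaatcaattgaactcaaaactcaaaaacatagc

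The next lines show overlapping probes of CYTB, COX1, COX3 and ATP6 in which single bases differ, again with the differing positions in capitals. Against A_72_P740839, the CYTB probes A_72_P757587 and A_72_P749269 carry the substitution C32T and A_72_P355338 carries G53A, counted from the 5′ end of A_72_P740839. Some pairs also differ by a base that only 1 of the probes holds, and these are not marked.
CYTB A_72_P740839: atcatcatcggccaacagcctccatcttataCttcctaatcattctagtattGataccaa
CYTB A_72_P355338: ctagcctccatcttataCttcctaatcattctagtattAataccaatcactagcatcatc
CYTB A_72_P757587: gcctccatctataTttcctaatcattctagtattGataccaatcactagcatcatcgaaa
CYTB A_72_P749269: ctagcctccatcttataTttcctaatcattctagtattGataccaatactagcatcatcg
COX1 A_72_P762153: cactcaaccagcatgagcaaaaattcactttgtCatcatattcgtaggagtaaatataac
COX1 A_72_P721538: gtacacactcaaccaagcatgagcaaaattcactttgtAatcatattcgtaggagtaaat
COX3 O11951: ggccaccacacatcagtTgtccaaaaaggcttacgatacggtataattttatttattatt
COX3 A_72_P756742: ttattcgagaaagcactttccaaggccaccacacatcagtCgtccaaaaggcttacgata
COX3 A_72_P722568: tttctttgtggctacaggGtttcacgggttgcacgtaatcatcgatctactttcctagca
COX3 A_72_P759849: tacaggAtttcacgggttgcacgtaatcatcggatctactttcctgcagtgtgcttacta
ATP6 A_72_P721760: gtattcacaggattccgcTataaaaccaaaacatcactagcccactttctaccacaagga
ATP6 A_72_P737289: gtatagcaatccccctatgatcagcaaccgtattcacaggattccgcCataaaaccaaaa

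One COX1 probe, O13550, is of the opposite strand. The 46 bases in capitals are the complement of the 46 bases in capitals of the COX1 probe A_72_P730653, read in the other direction.
COX1 O13550: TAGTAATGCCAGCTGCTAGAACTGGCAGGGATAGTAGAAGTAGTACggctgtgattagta
COX1 A_72_P730653: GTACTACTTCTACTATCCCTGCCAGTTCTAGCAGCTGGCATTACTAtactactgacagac
O13550 had a mean of 8.22 ± 0.16 (SD, n = 36) and lay between 7.94 and 8.59, with overlapping ranges in all 6 groups. Its heat change was 0.02 (SE 0.05, limma adjusted p = 0.96) and its LW minus CR difference 0.05 (SE 0.06, limma adjusted p = 0.716).

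The brightest probe of each gene was chosen to stand for it. For COX1 and COX2 that probe also had the least spread of its gene. For COX1, A_72_P736144 had values (lowest, median and highest of 6 pigs) of 18.76, 18.79 and 18.85 in CR at 24 °C, 18.76, 18.80 and 18.82 in CR at 30 °C, 18.62, 18.78 and 18.97 in F1 at 24 °C, 18.74, 18.79 and 18.87 in F1 at 30 °C, 18.75, 18.82 and 18.85 in LW at 24 °C, and 18.50, 18.79 and 18.82 in LW at 30 °C. All 6 groups overlapped. For COX2, A_72_P442181 was the probe with the least spread of all 75 (SD 0.04 over 36 pigs), with values of 18.60, 18.62 and 18.64 in CR at 24 °C, 18.57, 18.62 and 18.69 in CR at 30 °C, 18.58, 18.66 and 18.70 in F1 at 24 °C, 18.61, 18.67 and 18.70 in F1 at 30 °C, 18.61, 18.63 and 18.67 in LW at 24 °C, and 18.53, 18.66 and 18.70 in LW at 30 °C. Its groups overlapped as well.

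For COX3, A_72_P722568 was at 18.56, 18.74 and 19.03 in CR at 24 °C, 18.61, 18.65 and 19.02 in CR at 30 °C, 19.00, 19.03 and 19.07 in F1 at 24 °C, 18.80, 19.02 and 19.07 in F1 at 30 °C, 18.66, 18.74 and 19.07 in LW at 24 °C, and 18.58, 18.65 and 18.99 in LW at 30 °C. The F1 pigs lay near the top of the range and single CR and LW pigs reached them. For CYTB, A_72_P729443 was at 17.75, 17.93 and 18.20 in CR at 24 °C, 17.58, 17.86 and 18.15 in CR at 30 °C, 18.10, 18.29 and 18.43 in F1 at 24 °C, 17.98, 18.25 and 18.29 in F1 at 30 °C, 17.85, 17.93 and 18.39 in LW at 24 °C, and 17.80, 17.88 and 18.21 in LW at 30 °C. Its 3 breeds overlapped, with the F1 medians above the others.

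For ATP6, A_72_P753825 was at 18.25, 18.36 and 18.53 in CR at 24 °C, 18.22, 18.31 and 18.53 in CR at 30 °C, 18.53, 18.56 and 18.58 in F1 at 24 °C, 18.35, 18.54 and 18.58 in F1 at 30 °C, 18.29, 18.39 and 18.58 in LW at 24 °C, and 18.18, 18.29 and 18.52 in LW at 30 °C. For ATP8, A_72_P442187 was at 14.60, 15.01 and 15.31 in CR at 24 °C, 14.58, 14.88 and 15.03 in CR at 30 °C, 15.23, 15.29 and 15.40 in F1 at 24 °C, 15.10, 15.27 and 15.33 in F1 at 30 °C, 15.09, 15.17 and 15.50 in LW at 24 °C, and 14.82, 15.03 and 15.39 in LW at 30 °C. On both probes the F1 pigs spread less than the CR and LW pigs and overlapped with them. Levels are not compared between probes, since probes differ in how they bind.

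**Figure D1:**
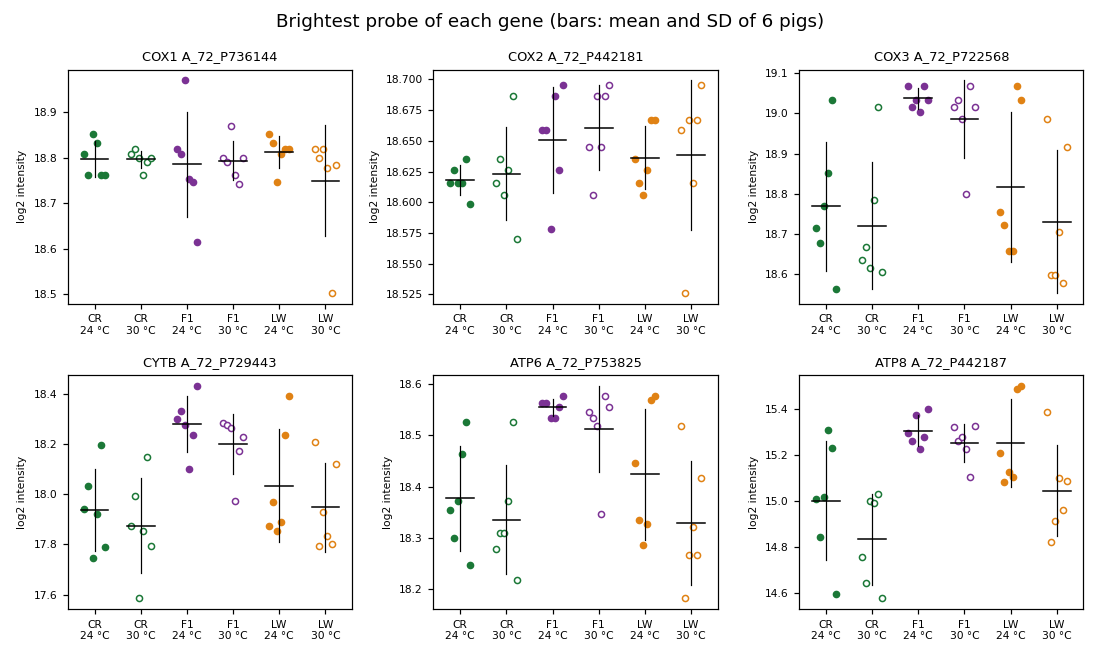
Quantile-normalized log2 intensity (vertical axis) of the brightest probe of each of the 6 genes in each of the 36 pigs, by breed and labelled temperature (filled points 24 °C, open points 30 °C, bars mean and SD of 6 pigs). The COX1 and COX2 probes were nearly level over the groups, while the F1 pigs lay at or near the top of the COX3, CYTB, ATP6 and ATP8 probes, where single CR and LW pigs reached them.

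The first tested comparison asked how the 6 genes differed between the pigs slaughtered after the heat and those slaughtered before it. No member probe was called: limma called 0 of 75 at an adjusted p under 0.05, where 1.18% of the 46222 tested probes were called, and 23 of the 75 had an unadjusted p under 0.05, against 9.74% of all tested probes. That count was 13 with the processed signal scaled to the 75th percentile and 15 in the model without breed. Lower values at 30 °C were the rule among the members, with 71 of 75 differences below 0 and a median of -0.09 on the log2 scale, beside a median of 0.01 and 44.4% below 0 over all tested probes. The sizes were small, from -0.15 to 0.09. Many of these probes overlap or share a messenger and rise and fall together over pigs, so they are not separate pieces of evidence.

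The 4 probes above 0 were O13550 of COX1, A_72_P442181 and A_72_P746371 of COX2, and A_72_P760010 of COX3. All 21 CYTB probes were below 0 (median -0.11), 14 of them with an unadjusted p under 0.05. Of the COX3 probes 13 of 14 were below 0 (median -0.08), 7 with an unadjusted p under 0.05, and of the ATP6 probes 9 of 9 (median -0.10), 1 with such a p. Of the COX1 probes 24 of 25 were below 0 (median -0.08) and of the COX2 probes 3 of 5 (median -0.02), none of them with an unadjusted p under 0.05.

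The member probe with the smallest p was A_72_P725783 of CYTB. Its lowest, median and highest values were 15.65, 15.82 and 16.04 in the 18 pigs at 24 °C and 15.57, 15.71 and 15.87 in the 18 pigs at 30 °C. The ranges overlapped, and 16 of the 18 pigs at 30 °C lay below the 24 °C mean of their own breed. The difference was -0.13 (SE 0.04, 95% interval -0.20 to -0.06, limma adjusted p = 0.0741).

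The 95% interval of the heat change held 0 for the brightest probe of 5 genes and not for ATP8. The change was -0.02 for COX1 (95% interval -0.08 to 0.04), 0.01 for COX2 (-0.04 to 0.05), -0.06 for COX3 (-0.16 to 0.04), -0.08 for CYTB (-0.19 to 0.03) and -0.06 for ATP6 (-0.13 to 0.01). For ATP8 it was -0.14 (95% interval -0.26 to -0.02), which was not called (limma adjusted p = 0.376). Over all 75 probes the lower values at 30 °C were not seen on every slide. The 30 °C pigs minus the 24 °C pigs of a slide had a median over the members of 0.03 on slide 1, -0.11 on slide 2, -0.26 on slide 3 and 0.04 on slide 4. Slide 5 held too few pigs. These slide medians were not adjusted for breed, and the breeds were unbalanced between the temperatures of a slide. Breed and heat cannot be told apart in them. With the slide as a fixed block in the model, the median was -0.09 and again 0 probes were called.

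Within breeds, limma also called 0 of 75 member probes for heat in CR, where 0.387% of all tested probes were called, in F1, where 0.383% were called, and in LW, where 0% were called. An unadjusted p under 0.05 was reached by 1 of 75 member probes in CR, 4 in F1 and 6 in LW, beside 5.75%, 10.6% and 4.01% of all tested probes. The median change over the members was -0.08 in CR, -0.04 in F1 and -0.13 in LW. The test of whether the heat change differs between breeds called 0 of 75 probes (limma F test, 0% of all tested probes called), and 0 had an unadjusted p under 0.05. At this spread between pigs, a heat change of a few hundredths in a breed was not detectable.

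COX1 was the gene whose medians differed most between breeds, at -0.07 in CR, 0.03 in F1 and -0.23 in LW, and the F1 and LW values rest on 2 pigs. Pig 6 of F1 at 24 °C was the lowest of its group on 24 of the 24 COX1 probes of the messenger strand, and pig 5 of LW at 30 °C on 23 of 24. On A_72_P721538, for instance, the first pig was at 17.33 where the other 5 of its group lay between 18.00 and 18.18, and the second at 16.89 where the others lay between 17.70 and 18.10. The median gap to the mean of the other 5 pigs over the 24 probes was -0.68 in the first and -0.93 in the second, and the next lowest pig was at -0.31.

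The other 5 member genes of these 2 pigs did not show such a gap. Over the COX2, COX3, CYTB, ATP6 and ATP8 probes the median gap was between 0.07 and 0.19 in the first pig and between -0.19 and 0.01 in the second. Over the ND genes it was 0.05 and -0.30, the second being the lowest of the 36 pigs, with the next at -0.29. On the COX1 probe of the opposite strand both pigs were the highest of their groups, at 8.44 and 8.38. Their arrays had 77.2% and 76.7% of probes well above background, within the range of 72.8% to 80.3% over the 36 arrays. Without both pigs the COX1 median of the heat change was -0.07 in CR, -0.09 in F1 and -0.06 in LW, and the heat change over all breeds had 0 calls, a median over the members of -0.08 and 71 of 75 probes below 0. The COX1 probes with an unadjusted p under 0.05 for heat then went from 0 to 8 of 25 and those of COX3 from 7 to 2 of 14. The share over all tested probes without both pigs is not reported here.

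**Figure D2:**
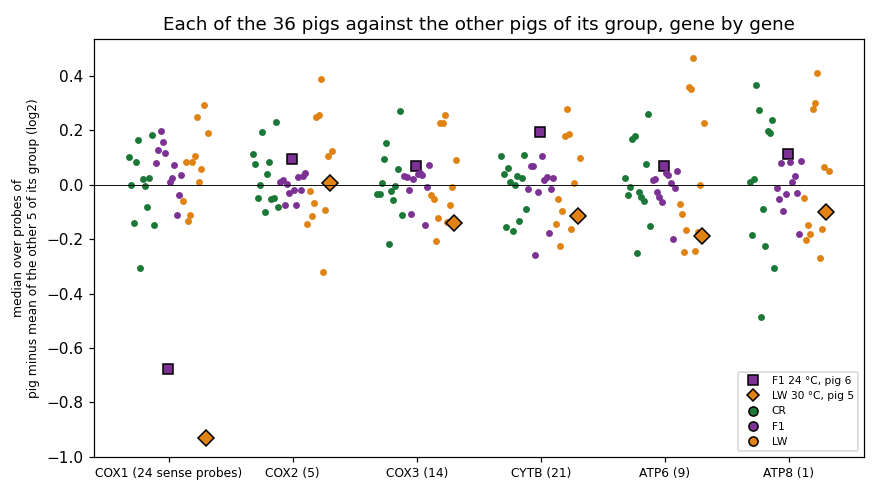
Each point is 1 of the 36 pigs, placed by the median, over the probes of a gene, of its log2 intensity minus the mean of the other 5 pigs of its group (vertical axis, log2), for each gene (horizontal axis, number of probes in brackets). The square (pig 6 of F1 at 24 °C, -0.68) and the diamond (pig 5 of LW at 30 °C, -0.93) stood apart on COX1 and lay among the other pigs on the remaining 5 genes.

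The second tested comparison asked how the parent breeds differed. Of the 75 member probes 6 were called, all higher in LW than in CR, where 12.9% of all tested probes were called in either direction and 7.17% higher in LW, so the members' share of 8.0% is near the background. The 6 belonged to COX2 (3 of 5 probes), COX3 (2 of 14) and ATP8 (the single probe), and none of the probes of COX1, CYTB or ATP6 was called. Without the 2 pigs low on COX1, a choice made after their values were seen, the COX1 median went from 0.01 to 0.08. The COX1 probes with an unadjusted p under 0.05 then went from 0 to 4 of 25, and the same 6 member probes were called. The shares over all tested probes without these pigs are not reported here. With the slide as a block, CYTB A_72_P740839 was called too, at 0.38 (limma adjusted p = 0.0431 with a fixed and 0.0409 with a random block), and with the fixed block also CYTB A_72_P732420, at 0.14 (limma adjusted p = 0.0357). Over all 75 probes 57 differences were above 0, with a median of 0.04, beside -0.0004 over all tested probes, and 11 (14.7%) had an unadjusted p under 0.05, fewer than the 26.2% of all tested probes.

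For COX2, A_72_P746371 was at 9.49, 13.87 and 16.27 in the 12 CR pigs (lowest, median and highest) and 13.70, 15.08 and 16.21 in the 12 LW pigs. The difference was 1.77 (SE 0.54, 95% interval 0.67 to 2.87, limma adjusted p = 0.0257), with 12 of 12 LW pigs above the CR mean but with overlapping ranges. The call was lost without pig 3 or without pig 4 of CR at 24 °C, the largest adjusted p being 0.0518. The overlapping probe A_72_P751248 was at 16.69, 16.95 and 17.41 in CR and 16.89, 17.19 and 17.49 in LW, a difference of 0.26 (SE 0.08, limma adjusted p = 0.0215) with 10 of 12 LW pigs above the CR mean. O5218, from another stretch of COX2, was at 15.01, 15.26 and 15.46 in CR and 15.08, 15.42 and 15.87 in LW, a difference of 0.22 (SE 0.07, limma adjusted p = 0.0251).

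The remaining COX2 probes, A_72_P442181 and A_72_P729033, differed by 0.02 and 0.03 and were not called (limma adjusted p = 0.747 and 0.692). COX2 thus had 3 called probes and 2 probes with almost the same level in both breeds. The 2 level probes were the brightest of COX2 and the 3 called probes the dimmest.

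For COX3, A_72_P760010 was at 12.22, 15.12 and 15.79 in CR and 15.16, 15.45 and 15.75 in LW. The difference was 0.93 (SE 0.28, 95% interval 0.36 to 1.49, limma adjusted p = 0.0232). A_72_P759028, which overlaps it, was at 15.26, 15.84 and 16.30 in CR and 15.85, 16.15 and 16.42 in LW, a difference of 0.34 (SE 0.08, limma adjusted p = 0.00449). On it 12 of 12 LW pigs were above the CR mean, and LW was above CR on all 5 slides. Each slide held few pigs of a breed, and slide 5 set LW at 24 °C against CR at 30 °C. The other 12 COX3 probes differed by -0.02 to 0.16 and were not called. For ATP8, A_72_P442187 was at 14.58, 15.00 and 15.31 in CR and 14.82, 15.10 and 15.50 in LW, a difference of 0.23 (SE 0.07, 95% interval 0.09 to 0.38, limma adjusted p = 0.0279). The calls of ATP8 and of O5218 were lost under both scalings to the 75th percentile and with the slide position as a block, with limma adjusted p up to 0.0891 for ATP8 and 0.14 for O5218.

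The 6 called probes were not called within a temperature: limma called 0 of 75 member probes between LW and CR at 24 °C, where 3.46% of all tested probes were called, and 0 of 75 at 30 °C, where 3.67% were called. An unadjusted p under 0.05 was reached by 6 of 75 member probes at 24 °C and by 3 at 30 °C, beside 16.9% and 17.1% of all tested probes. The differences of the 6 called probes had the same sign at both temperatures. They were 2.05 and 1.49 for A_72_P746371 and 1.13 and 0.73 for A_72_P760010, at 24 °C and 30 °C in that order. Without pig 5 of CR at 24 °C, 3 member probes were called at 24 °C, which were A_72_P746371, A_72_P760010 and A_72_P759028, with a smallest adjusted p of 0.0168. Without pig 5 of CR at 30 °C, A_72_P759028 alone was called at 24 °C (limma adjusted p = 0.0494).

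Over both temperatures, 5 of the 6 calls were lost when 4 CR pigs were left out. Pigs 3 and 4 of CR at 24 °C and pigs 3 and 4 of CR at 30 °C lay below each of the other 32 pigs on 6 member probes, which were A_72_P751248 and A_72_P746371 of COX2, A_72_P760010 and A_72_P759028 of COX3, and A_72_P761811 and A_72_P740839 of CYTB. On A_72_P746371 these pigs were at 9.49, 9.79, 11.81 and 11.75, and the other 32 pigs between 13.53 and 16.43. On A_72_P760010 they were at 12.22, 12.64, 13.56 and 13.64, and the others between 15.03 and 15.95. Over all 46222 tested probes, 38 placed these 4 pigs below the other 32, of which 6 were member probes and 0 were among the 53 probes of the ND genes.

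Without these 4 pigs, a choice made after their values were seen, limma called 2 of 75 member probes between LW and CR. The share of all tested probes called without them is not reported here. ATP8 A_72_P442187 was called again, at 0.31 (limma adjusted p = 0.00618), together with ATP6 A_72_P442189, at 0.16 (limma adjusted p = 0.0367). The differences of the COX2 probes then were 0.49 for A_72_P746371 (limma adjusted p = 0.411), 0.12 for A_72_P751248 (0.297) and 0.22 for O5218 (0.0663), and those of COX3 0.16 for A_72_P760010 (0.199) and 0.16 for A_72_P759028 (0.0765). On O5218 the 4 pigs lay within the range of the other CR pigs, and its difference was 0.22 with and without them.

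**Figure D3:**
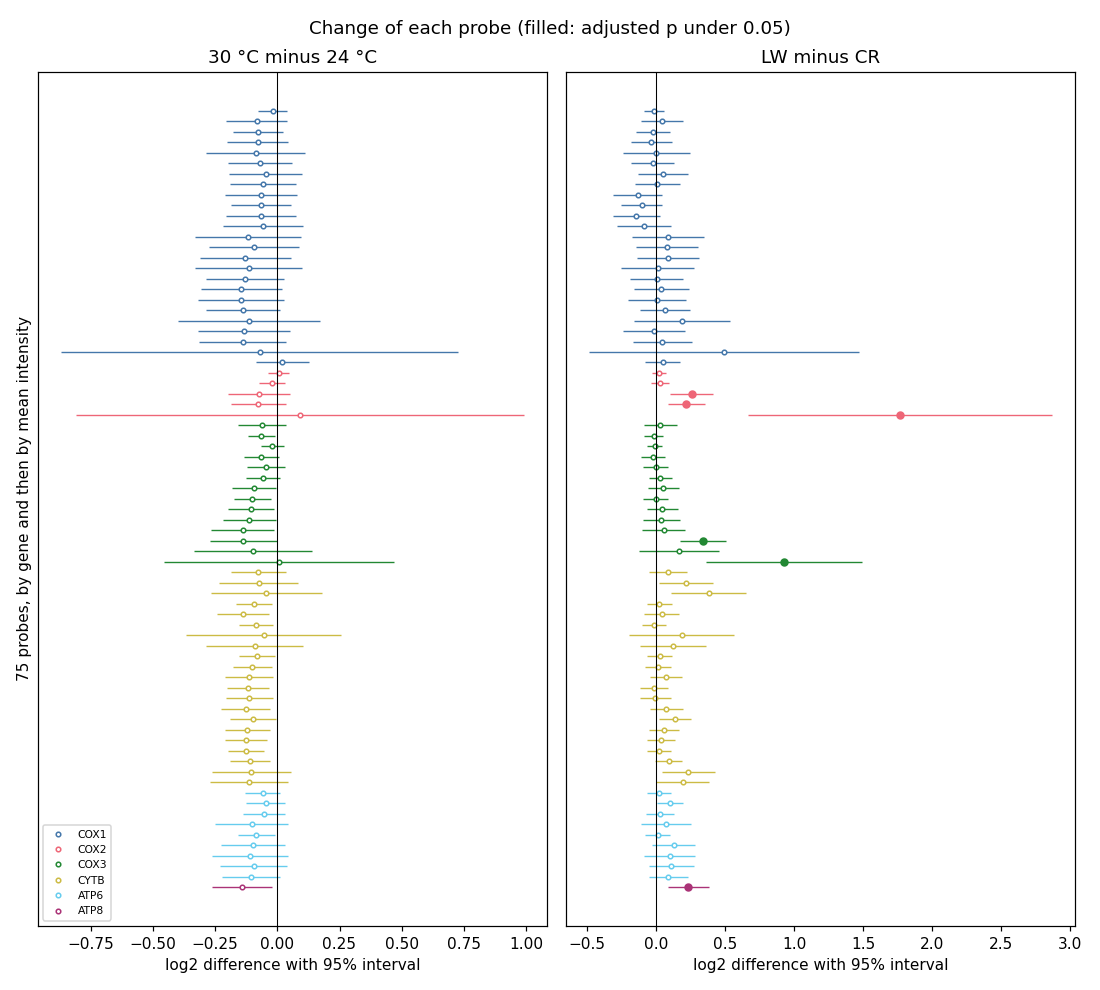
Log2 difference of each of the 75 probes with its 95% interval (horizontal axis) between 30 °C and 24 °C (left) and between LW and CR (right), in rows ordered by gene and then by mean intensity, with filled points for a limma adjusted p under 0.05. In the left panel 71 of 75 points lie below 0 and none is filled, and in the right panel 6 points of COX2, COX3 and ATP8 are filled, all above 0.

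Other cell types also differed between these breeds. Among the marker lists, 4 of 6 adipocyte genes were called lower in LW (ADIPOQ at -1.21, PLIN1 at -1.20 and CIDEC at -0.79 had the smallest p), and 3 of 5 endothelial genes were called higher (KDR at 0.73, PECAM1 at 0.35 and CDH5 at 0.19). The endothelial gene VWF was at -0.12 and not called. Of 8 skeletal muscle genes 1 was called higher in LW, ACTA1 at 0.22, while 7 were below 0 (median of the list -0.12). Of 8 follicular, 3 C cell, 4 erythroid, 5 T cell and 5 fibroblast genes none was called. The summed intensity of the adipocyte list ranged from 15550 to 44455 in CR pigs and from 16647 to 33343 in LW pigs, and that of the endothelial list from 22531 to 33529 and from 27684 to 38661. The part of these cell types in the LW minus CR differences of the mitochondrial genes was not tested. In whole tissue, fewer cells of a type and less RNA per cell cannot be told apart. For heat, HBB, a haemoglobin chain of red cells, fell by 1.00 (limma adjusted p = 0.00142), the only one of these marker genes called. The adipocyte genes were below 0 at 30 °C in 6 of 6 (median -0.32, 3 with an unadjusted p under 0.05, smallest limma adjusted p = 0.0722 for LIPE), and the fibroblast genes in 4 of 5 (median -0.28, 2 with such a p). Their part in the lower member values at 30 °C was not tested.

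The third comparison sets the F1 pigs against their parent breeds, as a description. The F1 mean lay above the mean of the CR and LW means on 67 of 75 probes, with a median difference of 0.14, beside -0.0028 over all tested probes. It lay above both breed means on 64 probes and below both on 4. By gene, the median difference was 0.38 for COX2 (5 of 5 probes above 0), 0.29 for ATP6 (9 of 9), 0.25 for ATP8, 0.22 for COX3 (12 of 14), 0.14 for CYTB (20 of 21) and 0.04 for COX1 (20 of 25).

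The size differed widely between probes of a gene. Within COX2 it was 2.07 for A_72_P746371 and 0.03 for A_72_P442181, within COX1 1.95 for A_72_P762153 and -0.06 for A_72_P729588, within CYTB 0.94 for A_72_P355338 and -0.03 for A_72_P725783, and within COX3 0.75 for A_72_P760010 and -0.05 for A_72_P756742. In ATP6 the 9 probes ranged from 0.11 to 0.45. The probes nearest 0 on either side were A_72_P732103 and A_72_P736144 of COX1, at -0.0046 and 0.0008. The share of the summed intensity held by the 75 probes was 6.62% ± 0.62 in CR at 24 °C, 6.26% ± 0.44 in CR at 30 °C, 7.50% ± 0.43 in F1 at 24 °C, 7.42% ± 0.33 in F1 at 30 °C, 7.02% ± 0.82 in LW at 24 °C and 6.37% ± 0.89 in LW at 30 °C (SD, n = 6), with overlapping ranges.

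On the probes with the largest differences the F1 pigs lay together at an upper level, and the CR and LW pigs were split between levels. On A_72_P355338 of CYTB, 18 pigs lay between 17.49 and 17.78 and the other 18 between 16.09 and 16.55, with no pig between. The upper 18 were all 12 F1 pigs, pigs 5 and 6 of LW at 24 °C, pigs 1 and 6 of LW at 30 °C, pig 5 of CR at 24 °C and pig 5 of CR at 30 °C. The same 18 pigs lay above the other 18 on 14 member probes, which were 6 of CYTB, 3 of ATP6, 2 of COX2, 2 of COX3 and 1 of COX1, with gaps between 0.01 and 0.98.

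Over all 46222 tested probes, 32 placed these 18 pigs above the other 18. They were the 14 member probes, 16 of the 53 probes of the ND genes, which encode the mitochondrial subunits of complex I, and 2 other probes, one for PLEKHD1 (from 6.53 up to 7.26 in the 18 pigs, and at most 6.23 in the others) and one that the files describe as similar to transmembrane protease serine 6 (14.15 to 15.22 against 11.72 to 13.01). Since these 18 pigs include all 12 F1 pigs, for which the genes were chosen, the split is a description. Temperature was balanced in it, with 9 upper pigs at each temperature.

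COX2 A_72_P746371 had 3 levels. The 18 upper pigs lay between 16.08 and 16.43, the 4 CR pigs named above between 9.49 and 11.81, and the remaining 14 between 13.53 and 15.09. The overlapping A_72_P751248 kept the same order in a narrower range, with the upper 18 pigs between 17.31 and 17.55 and the 4 CR pigs between 16.69 and 16.70, and the correlation of both probes over the 36 pigs was 0.91. Their SD over the pigs was 1.82 and 0.28.

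Other overlapping pairs with 1 or 2 differing bases also joined a wide and a narrow probe. The SD over the 36 pigs was 1.52 for A_72_P762153 of COX1 and 0.24 for A_72_P721538 (C34A, counted in the first, 53 identical bases). It was 0.65 for A_72_P355338 of CYTB and 0.11 for A_72_P749269, which differ by T18C and G39A counted in the second, and 0.43 for A_72_P740839. In COX3 it was 0.25 for O11951 and 0.11 for A_72_P756742 (T18C counted in the first), and 0.18 for A_72_P722568 and 0.07 for A_72_P759849 (G19A). In ATP6 it was 0.22 for A_72_P721760 and 0.12 for A_72_P737289 (T19C). Some overlapping pairs without a differing base also differed in spread, such as A_72_P760010 and A_72_P759028 of COX3, at 0.86 and 0.29, and some pairs with a differing base did not, such as A_72_P724485 and A_72_P732420 of CYTB (C10T), at 0.16 for both. The wide probe of the COX1 pair was also the dimmer one, with a mean of 15.25 against 17.94. In COX3 the wide A_72_P722568 was the brightest probe of its gene. The part of brightness in these spreads was not tested. The part of the base differences was not tested either, since the files give no mitochondrial sequence of the pigs.

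**Figure D4:**
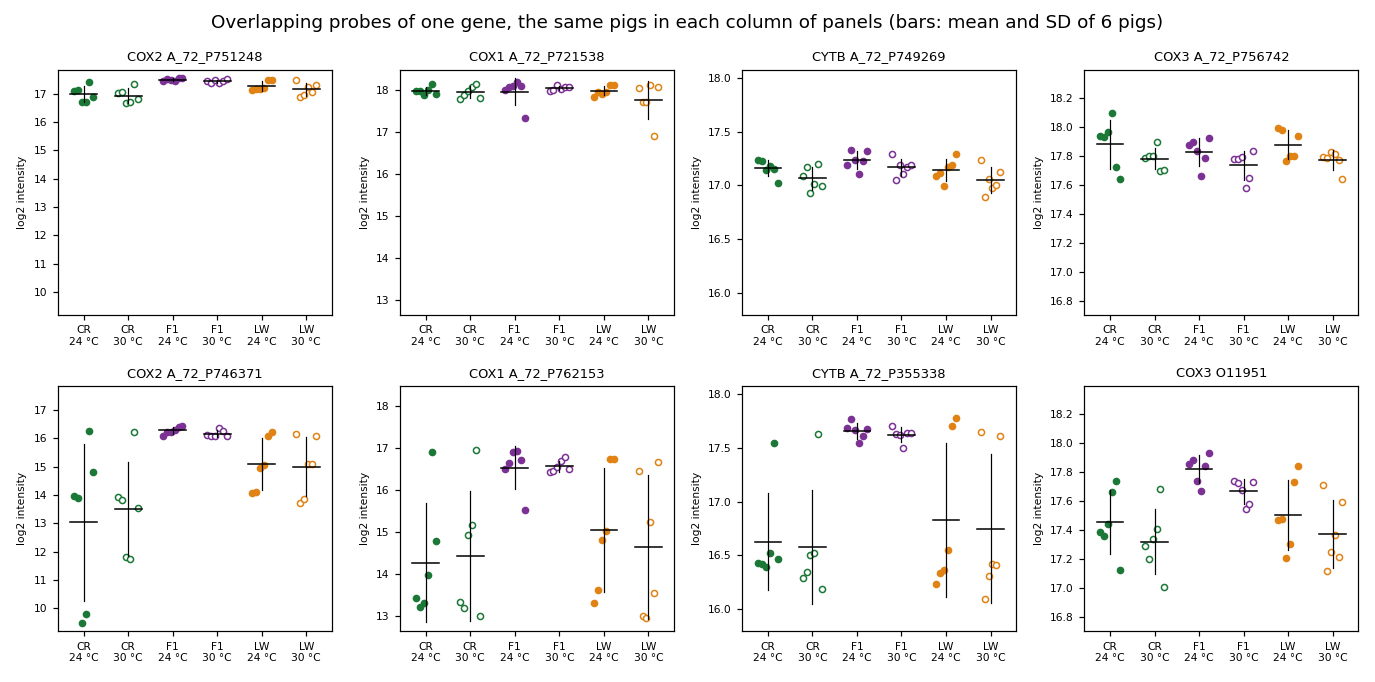
Log2 intensity (vertical axis, the same scale within a column of panels) of 4 pairs of overlapping probes in the 36 pigs by group, with the mean and SD of 6 pigs. The lower probes of COX2, COX1, CYTB and COX3 had an SD over the 36 pigs of 1.82, 1.52, 0.65 and 0.25 and fell into separate levels or spread widely within CR and LW, while the upper probes had SDs of 0.28, 0.24, 0.11 and 0.11.

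A further pair of CR pigs stood apart on 1 ATP6 member probe and on a probe named MT-ATP6 that overlaps it. Pig 5 of CR at 24 °C and pig 5 of CR at 30 °C were at 17.99 and 17.93 on A_72_P442189, below the other 34 pigs, which lay between 18.23 and 18.56. O2494, the probe named MT-ATP6, is not counted among the 75 and shares 58 identical bases with it. There these pigs were at 18.19 and 18.16, also below the other 34, of which the lowest was at 18.36. On none of the other 8 ATP6 member probes did this pair lie below the other 34. Over all 46222 tested probes 410 placed this pair below the other 34. Of these, 409 carry neither one of the 6 gene names nor an ND name, O2494 among them.
ATP6 A_72_P442189: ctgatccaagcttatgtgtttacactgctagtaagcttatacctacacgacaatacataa

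Within breeds, the F1 pigs spread less. The F1 SD was below the LW SD on 66 of 75 probes and below the CR SD on 46, and the median SD over the probes was 0.12 in F1, 0.15 in CR and 0.22 in LW. For COX1 the F1 SD was below the CR SD on 7 of 25 probes, and pig 6 of F1 at 24 °C is among these 12 pigs. The probes of a gene moved together over pigs only in part. The correlation of 2 probes over the 36 pigs had a median of 0.72 for pairs of the same gene (647 pairs, -0.43 to 0.99) and 0.39 for pairs of different genes (2128 pairs, -0.51 to 0.98). The highest median within a gene was 0.93 for ATP6, followed by 0.75 for COX1, 0.69 for CYTB, and 0.64 for COX3 and COX2. These pairs share arrays, scaling and, often, bases.

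**Figure D5:**
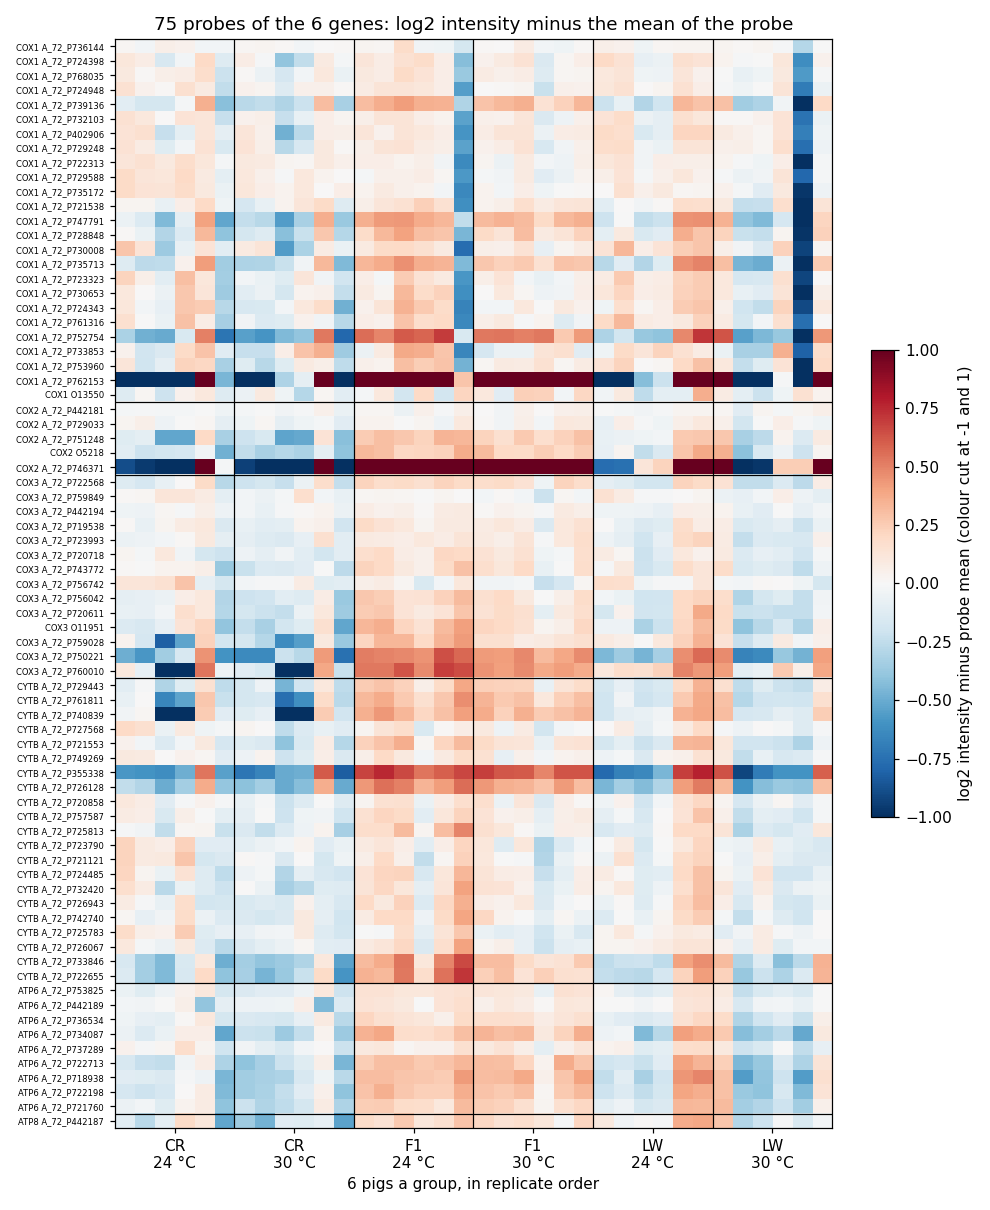
Log2 intensity minus the mean of the probe (colour, limits -1 and 1) for the 75 probes (rows, by gene and then by mean intensity) in the 36 pigs (columns, by breed and labelled temperature). The F1 columns lean to red on most rows of the 6 genes, only faintly on most COX1 rows. In addition, 2 columns (pig 6 of F1 at 24 °C and pig 5 of LW at 30 °C) are blue over the COX1 rows, and 4 CR columns are dark blue on rows of COX2, COX3 and CYTB.

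The genes of the same pathways are given next, each by its brightest tested probe. The 7 ND genes, which stand on the same genome, had heat changes below 0 in 7 of 7, with a median of -0.08 and 0 calls, an LW minus CR median of -0.01 with 0 calls, and an F1 difference above 0 in 7 of 7 with a median of 0.21. Among the nuclear subunits the F1 difference was above 0 in 3 of 9 genes of complex III, 3 of 13 of complex IV and 1 of 17 of complex V, with medians of -0.02, -0.04 and -0.02. Among the marker lists, the F1 difference was above 0 in 6 of 6 adipocyte genes (median 0.40, with ADIPOQ at 0.65 and CIDEC at 0.63), in 2 of 3 C cell genes (median 0.51), in 4 of 5 endothelial genes (median 0.06) and in 0 of 5 fibroblast genes (median -0.14). Their part in the F1 difference of the mitochondrial genes was not tested. For heat, limma called 0 nuclear subunits, with an unadjusted p under 0.05 for 1 of complex III, 0 of complex IV and 0 of complex V, and medians of -0.01, -0.03 and -0.02.

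Between LW and CR, CYC1, the cytochrome c1 of complex III, was lower in LW by -0.24 (limma adjusted p = 0.0195), ATP5MC3, a ring subunit of complex V, was lower by -0.46 (limma adjusted p = 1.62e-06), and COX4I2, a subunit isoform of complex IV, was higher by 0.70 (limma adjusted p = 0.019). These were the only called genes of the 9, 17 and 13 tested. Of 17 assembly factors, 3 were called lower in LW, namely PET100, COX16 and TACO1, a translational activator of COX1, at -0.13, -0.13 and -0.23. Of 18 genes of mitochondrial DNA upkeep and transcription, SSBP1, which binds single-stranded mitochondrial DNA, was called higher (0.19) and TFB1M, a methyltransferase of mitochondrial ribosomal RNA, lower (-0.23), and of 20 other mitochondrial proteins none was called. The medians over these 3 lists were -0.06, -0.04 and -0.03 for LW minus CR and 0.03, 0.02 and 0.01 for heat, and the F1 difference was above 0 in 7 of 17, 9 of 18 and 7 of 20 genes.

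The genes whose level over the 36 pigs was most like the mean of the 6 brightest member probes, among 11100 named genes outside the mitochondrial genome, were PLEKHD1 (Pearson r = 0.82), CKB (0.66), TF (0.65), PLA2G7 (0.64) and SERPINI1 (0.62). Those most opposed were IFNAR2 (-0.76, probe mean 18.42), TSEN15 (-0.67, 10.75), PRDX5 (-0.65, 15.27), TOMM5 (-0.64, 11.47) and EEF1A1 (-0.60, 18.14), of which IFNAR2 and EEF1A1 were as bright as many member probes. All values come from the same arrays and scaling, F1 pigs were higher on the first 5 and lower on the others, and the member probes were chosen for their level in F1 pigs.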

How the data were processed

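Total RNA of each thyroid was labelled with Cy3 and hybridized to a 1-colour Agilent porcine array. Per the file headers, the scanner files, read with Agilent Feature Extraction 10.10.1.1, hold median pixel intensity, local background and a processed intensity. The authors quantile-normalized their arrays and deposited log2 values, which match the median intensity taken without background subtraction.

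Values were remade from the scanner files: 1319 control spots were left out, 106 non-uniform spots set to missing, the other 60306 spots quantile-normalized over 36 arrays, and log2 taken. The median difference from the deposited log2 values was 0.00556. A probe was tested when well above background on at least 5 of 6 arrays of a group (46222 of 60305). The number of arrays (6 a group, on 5 slides) limits the precision.

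Tests used limma 3.58.1 in R 4.3.3 on all 36 arrays, adjusted by Benjamini-Hochberg across the tested probes, with calls at an adjusted p under 0.05. Heat and LW minus CR came from a model of breed and temperature, and the changes within groups and the interaction from the 6 group means. The study's mixed model has terms for pen, slaughter day, sire and dam, which the labels lack. The stretches shared by probes were found with Biopython 1.88, at an alignment score of at least 14.

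The members and lists were chosen with earlier results of these data known. All 6 genes and 75 probes were accounted for, with the brightest probe of each gene and each called probe in full, and for each list the called genes with the 3 smallest p. The alternatives were 2 scalings to the 75th percentile, normexp background correction (offset 50), the deposited values, other filters on dim probes, slide or slide position as a block, a heat model without breed, each pig left out, and 2 sets of pigs left out after their values were seen. The files give no genome position for the probes and no genome was used here.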

Additional observations from a re-analysis of the deposited data

Results flagged for a closer look

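Values of 16 quantities (the 6 brightest probes, the 5 further called probes and the mean of the probes of each gene except ATP8) were searched in each of the 6 groups of 6 pigs for a pig whose gap to its nearest neighbour, divided by the whole range, exceeded the 95% critical value of Dixon's test. Of the 96 groups of values 7 held such a pig, and chance alone marks about 1 in 20, or 4.8 of 96. Pig 4 of F1 at 30 °C was low on COX3 A_72_P722568 (18.80, the others from 18.99 to 19.07), CYTB A_72_P729443 (17.98, the others from 18.18 to 18.29), ATP6 A_72_P753825 (18.35, the others from 18.52 to 18.58) and the mean of the 9 ATP6 probes (18.13, the others from 18.30 to 18.34). The COX1 pigs described above were marked too. Pig 5 of LW at 30 °C was at 18.50 on COX1 A_72_P736144, with the others from 18.78 to 18.82, and pig 6 of F1 at 24 °C was at 16.60 on the mean of the 25 COX1 probes, with the others from 17.20 to 17.33. Pig 5 of CR at 30 °C was high on the mean of the 14 COX3 probes, at 17.76, where the others lay from 17.40 to 17.51. This pig is among the 18 pigs with the upper level on A_72_P355338. The causes were not tested.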

How the results depend on the processing

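No paired analysis was possible because the labels give no replicate numbers and no litter or pen. The heat change, the interaction and the changes within groups had 0 called member probes under each alternative that kept all 36 pigs. Leaving out each pig in turn gave 0 to 1 called member probes for heat, the 1 being CYTB A_72_P725783 (without pig 5 or 6 of CR at 24 °C, pig 4 of CR at 30 °C, pig 4 of F1 at 24 °C or pig 3 of LW at 30 °C, smallest adjusted p 0.0372), 0 to 1 for heat in F1 (CYTB A_72_P726067, without pig 4 of F1 at 24 °C), 0 to 3 for LW minus CR at 24 °C, and 4 to 7 for LW minus CR over both temperatures. The 6 calls between LW and CR became 4 under both scalings to the 75th percentile and with the slide position as a block (without ATP8 and O5218), 7 with the slide as a random block and 8 with the slide as a fixed block (1 and 2 CYTB probes more), and 2 without the 4 CR pigs lowest on COX2, COX3 and CYTB. The heat change of COX2 A_72_P442181 turned from 0.01 to -0.0101 with the processed signal and to -0.0037 with median intensity, both scaled to the 75th percentile. The cause was not tested. ATP8 A_72_P442187 lost its call without any 1 of 6 pigs (largest adjusted p 0.0591) and O5218 without any 1 of 3 (0.0527). The share of all tested probes called under each alternative is not reported here, so these member counts have no background beside them. The median F1 difference over the members lay between 0.12 and 0.17 in all alternatives.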
